A study of Mus musculus with 6 samples.

Results

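The mitochondrial carriers encoded by the Slc25a genes were followed in mouse colonic crypts across healthy mucosa, short dextran sulfate sodium (DSS) exposure and colitis-associated tumors. The members were the probe sets annotated to exactly 1 symbol beginning with Slc25a, leaving out Slc25a20. This gave 32 of the 12393 genes with such a probe set on the array and 63 of 20380 probe sets. Of these, 44 probe sets and 26 genes passed a filter on dim signal (above the array median on at least 2 of the 6 arrays) and were tested. The 6 genes below it were Slc25a2, Slc25a23, Slc25a25, Slc25a42, Slc25a48 and Slc25a53, whose 7 probe sets reached at most 116 on any array. A further 14 of the 46 Slc25a genes in RefSeq, among them the citrate carrier Slc25a1 and the aspartate-glutamate carrier Slc25a12, had no probe set of 1 symbol and were not analysed here.

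All mice were male and heterozygous for Lgr5-lacZ, a reporter allele at the intestinal stem cell gene Lgr5, and every array measured total RNA of crypts pooled from 2 mice. The 2 control arrays held distal colon crypts of mice aged 6 to 8 weeks on drinking water. The 2 DSS arrays held crypts of mice of the same age after 2 days of 1% DSS, a detergent-like polymer that injures the colon epithelium. The 2 tumor arrays each held crypts of 12 pooled adenomas. These mice received the carcinogen azoxymethane (AOM) at 12.5 mg/kg at 6 to 8 weeks of age. After 5 days they drank 2% DSS for 5 days and then water for 14 days, and the cycle was repeated with 1.5% and 1.0% DSS. The tumors were labelled 90 days after AOM. Tumor arrays therefore differed from control arrays also in the age of the mice and in their AOM and DSS history, and these cannot be told apart from tumor formation.

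Slc25 proteins are carriers that exchange metabolites, nucleotides, cofactors and ions, most of them across the inner mitochondrial membrane. They share a fold made of repeated pairs of membrane helices. Adenine nucleotide carriers swap cytosolic ADP for matrix ATP, the phosphate carrier supplies ATP synthase, and other members serve the malate-aspartate shuttle, the urea cycle, iron use and mitochondrial nucleic acid synthesis. Colonocytes meet much of their energy need by oxidising butyrate in mitochondria.

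The 5′ flanks of 4 carriers are shown because the results turn on them as 2 pairs of related carriers. Slc25a33 rose and Slc25a36 fell in tumor, and Slc25a4 rose while Slc25a5 was not called. Slc25a4 and Slc25a5 encode the adenine nucleotide carriers ANT1 and ANT2, and Slc25a33 and Slc25a36 both encode pyrimidine nucleotide carriers. Each sequence gives the 250 bases before the RefSeq transcription start in build GRCm38.p6, from 5′ to 3′ on the gene's strand, with motif matches in capitals. The Slc25a4 flank lies at chr8:46211063-46211312 (minus strand), that of Slc25a5 at chrX:36795347-36795596 (plus strand), that of Slc25a33 at chr4:149774268-149774517 (minus strand) and that of Slc25a36 at chr9:97111042-97111291 (minus strand).
Slc25a4: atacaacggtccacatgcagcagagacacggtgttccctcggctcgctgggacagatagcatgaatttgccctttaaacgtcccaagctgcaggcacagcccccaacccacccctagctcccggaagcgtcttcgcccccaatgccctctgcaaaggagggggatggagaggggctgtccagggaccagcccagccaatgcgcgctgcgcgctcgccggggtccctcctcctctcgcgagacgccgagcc
Slc25a5: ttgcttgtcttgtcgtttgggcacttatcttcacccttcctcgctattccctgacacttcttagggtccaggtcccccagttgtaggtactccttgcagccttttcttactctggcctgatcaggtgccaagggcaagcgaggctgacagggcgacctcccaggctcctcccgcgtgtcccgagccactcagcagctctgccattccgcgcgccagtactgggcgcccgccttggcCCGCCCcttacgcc
Slc25a33: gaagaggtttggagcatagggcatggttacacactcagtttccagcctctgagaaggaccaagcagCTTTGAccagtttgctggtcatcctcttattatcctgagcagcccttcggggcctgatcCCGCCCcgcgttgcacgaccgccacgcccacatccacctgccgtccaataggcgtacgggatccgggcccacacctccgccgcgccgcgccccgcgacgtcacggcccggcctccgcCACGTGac
Slc25a36: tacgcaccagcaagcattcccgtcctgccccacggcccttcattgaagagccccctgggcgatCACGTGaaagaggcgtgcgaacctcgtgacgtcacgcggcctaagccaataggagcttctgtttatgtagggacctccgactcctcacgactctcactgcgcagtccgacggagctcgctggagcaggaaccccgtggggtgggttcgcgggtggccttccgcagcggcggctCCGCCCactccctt
The motifs searched on both strands were TATAAA, the E-box CACGTG, the NRF1 motif, the ERR site AAGGTCA, the TCF/LEF motif CTTTGA and the GC box GGGCGG. In the Slc25a4 window 0 of these motifs matched, and the Slc25a5 window held a GC box on the reverse strand whose first base lay 14 bases before the start. Slc25a33 carried an E-box 8 bases before the start, a GC box on the reverse strand at 125 bases and CTTTGA at 184 bases. Slc25a36 carried an E-box at 187 bases and a GC box on the reverse strand at 14 bases. RefSeq flanks were found for 25 of the 32 genes, 34 flanks in all. The GC box was in 27 of these 34 against 32.7% of all 32851 flanks, the E-box in 6 against 6.02%, CTTTGA in 4 against 13.8%, and TATAAA in 0 against 12.4%. AAGGTCA and the NRF1 motif were in 0 of the 34, against 4.08% and 0.782% of all flanks. A match is a run of letters and not a measured binding site.

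Array quality was compared before the carriers were read. The 2% trimmed mean was 500.2 on every array, though the sources used here do not state a scaling step. Array medians ran from 94.2 to 131, highest on the tumor 2 array. Within groups the arrays correlated at 0.959 to 0.978 over log2 values, and tumor arrays with the others at 0.809 to 0.876. Control 1 correlated with DSS 1 at 0.983 and control 2 with DSS 2 at 0.986. Both values exceeded those between the control arrays (0.971) and between the DSS arrays (0.978). Control and DSS arrays thus resembled each other more by replicate number than by group, and the reason was not tested. The spiked poly-A controls, which track labelling, averaged 631 on control 1 and 948 on DSS 1 against 244 to 307 on the other 4 arrays. Their part in the results was examined only through a fit with these 2 arrays as a block. Summed epithelial markers (8 genes, 0 of them below the array median throughout) lay between 71205 and 85067 on all arrays. In tumor minus control 3 of the 8 were above 0 (median -0.12). Of these Krt18 was called (0.63, limma adjusted p = 0.022), a call lost with median centring (0.38). After DSS 6 of the 8 were above 0, 0 were called and the lowest change was -0.76. Summed myeloid markers were 2032 and 2371 on the control arrays, 1854 and 2412 on the DSS arrays and 5203 and 9862 on the tumor arrays. Lyz2 (log2 change 3.89 ± 0.66, SE) and Cd14 (0.70 ± 0.21) were the tested myeloid markers (2 of 5) that were higher in tumor than in control at an adjusted p under 0.05. The Cd14 call was lost on leaving out any 1 array other than tumor 1, with values from 0.51 to 0.85, and with median centring (0.46), no filter, no intensity trend or only the compared groups in the fit. Summed fibroblast markers were 2005 and 4090, 2747 and 5048, and 4232 and 11984 in the same order, with 1 of 6 called (Vim, 3.25 ± 0.52, a gene that other cell types also express). Most tested fibroblast markers were lower in tumor. Only 2 of the 6, Vim included, were above 0 in tumor minus control, with a median of -0.48 and a lowest change of -1.43. The higher sum on tumor 2 therefore does not describe most of the tested fibroblast markers. Summed smooth muscle markers, 1364 and 4072 in control and 827 and 1706 in tumor, had 0 of 6 called. The lists for T and B cells, endothelium, nerve and red cells held 16 genes with a probe set, of which 0 passed the filter. In such bulk crypt RNA, fewer cells of a type and less RNA per cell cannot be told apart.

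In short DSS exposure no carrier passed the test. Of the 26 tested genes, 0 were called, where a call is a Benjamini-Hochberg adjusted p under 0.05 over all 7456 tested genes in limma's 3-group fit. The background in this comparison was 0 genes called, or 0%, and 2.53% of genes at an unadjusted p under 0.05. The carriers at that unadjusted level numbered 0 of 26. Their log2 changes ran from -0.24 to 0.42 with a median of 0.06, against 0.0045 over all genes in the same comparison. 14 of the 26 were above 0. DSS and control arrays did not overlap for 9 carriers, 4 higher and 5 lower, against 26.5% of all genes (12.8% higher, 13.7% lower). Each of the 26 intervals at 95% included 0, with bounds from -0.88 to 1.02 and a median margin of 0.51 on each side of the estimate. These intervals are not adjusted for the number of genes. A call needs an adjusted p, so changes larger than this margin could also be missed with 2 arrays a group.

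The carriers of smallest p after DSS were, on the higher side, Slc25a45, Slc25a3, Slc25a36 and Slc25a17. Slc25a45, a carrier with no substrate assigned here, read 61.2 and 52.2 on the control arrays and 85.7 and 78.2 on the DSS arrays, a log2 change of 0.42 ± 0.26 (95% interval -0.17 to 1.02). Each of these readings lay below the median of its array, and only the tumor arrays brought the gene past the filter. The highest carrier change after DSS thus came from a gene with dim signal in both groups. Slc25a17, the peroxisomal carrier of coenzyme A and related nucleotides, read 346 and 308 in control and 438 and 351 in DSS, a change of 0.25 ± 0.22 (95% interval -0.26 to 0.76). Both DSS arrays lay above both control arrays for these genes and for Slc25a3, but not for Slc25a36, where control 2 exceeded DSS 1. On the lower side they were Slc25a4, Slc25a13, Slc25a51 and Slc25a33. Slc25a13, the aspartate-glutamate carrier citrin, read 195 and 198 in control and 167 and 161 in DSS, a change of -0.24 ± 0.21 (95% interval -0.73 to 0.25). Slc25a51, which brings NAD+ into mitochondria, read 1679 and 1497 in control and 1454 and 1359 in DSS, a change of -0.17 ± 0.16 (95% interval -0.53 to 0.19). The DSS arrays lay below both control arrays for Slc25a4, Slc25a13 and Slc25a51, and overlapped them for Slc25a33.

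Tumor crypts differed from control crypts in 5 of the 26 tested carriers. Slc25a4, Slc25a45, Slc25a30 and Slc25a33 rose and Slc25a36 fell, and the same 5 genes were called in the same directions against DSS crypts. Slc25a45 passed the filter only through its tumor arrays, so its rise lends no support to a change of the family. The counts of carriers in both tumor comparisons include it. The 5 called carriers were 19.2% of the members, beside 22.5% of all tested genes called in tumor against control (12.8% higher, 9.74% lower). Against DSS, 4 carriers were higher and 3 lower, 26.9% of the members beside 26.2% of all genes (14.8% higher, 11.3% lower). The share called was thus near the background in both comparisons. At an unadjusted p under 0.05 the carriers numbered 8 against control and 9 against DSS, beside 36.6% and 38.6% of all genes. The median log2 change of the carriers was -0.05 against control and -0.02 against DSS, beside 0.05 and 0.04 over all genes. Tumor and control arrays did not overlap for 13 of 26 carriers (6 higher, 7 lower), against 61.5% of all genes (33.8% higher, 27.7% lower). For tumor and DSS arrays the number was 15 (6 higher, 9 lower), against 66.0% (35.3% higher, 30.7% lower). The comparisons against control and against DSS share the tumor arrays, so they are set side by side and not counted as independent.

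**Figure D1:**
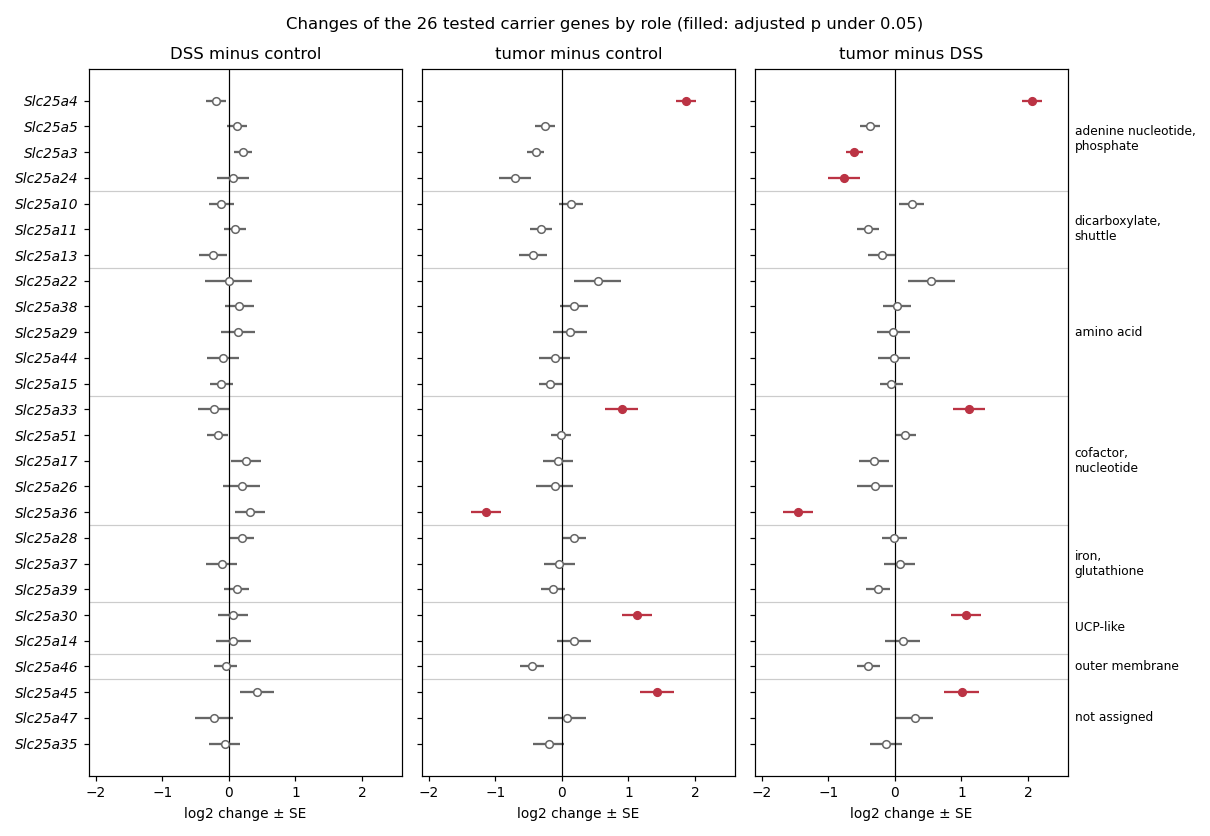
The log2 change with its standard error (horizontal axis) is plotted for each of the 26 tested carriers (vertical axis, grouped by role) in 3 comparisons: DSS minus control, tumor minus control and tumor minus DSS; filled points have an adjusted p under 0.05. Filled points number 0 in the DSS panel, 5 in the tumor minus control panel and 7 in the tumor minus DSS panel, with Slc25a4 farthest to the right at 1.86 and 2.06.

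The adenine nucleotide and phosphate carriers moved in unequal directions. Slc25a4 encodes ANT1, the adenine nucleotide carrier typical of heart and muscle. It read 699 and 670.0 on the control arrays, 616 and 574 on the DSS arrays and 2548 and 2524 on the tumor arrays. The tumor arrays stood far above all 4 others and the DSS arrays lay slightly below control. Folds here and below are of intensities with a constant of 17.8 added, as in the fit. The tumor level was 3.64-fold that of control (log2 change 1.86 ± 0.15, 95% interval 1.51 to 2.22, limma adjusted p = 0.00021) and 4.17-fold that of DSS (2.06 ± 0.15, limma adjusted p = 0.000137). This was the lowest adjusted p and the largest change among the tested carriers in both tumor comparisons. Tumor minus control stayed past the threshold in all 18 alternative settings, between 1.61 and 2.05. Each of the 6 tested smooth muscle markers had a negative log2 change on the same arrays (median -1.35, 0 called). Any part of muscle carry-over in the Slc25a4 result was not tested. Summed myeloid markers were higher on both tumor arrays than on the other 4, as given above, and their part in the Slc25a4 result was not tested. Summed fibroblast markers were highest on tumor 2, while tumor 1 lay below DSS 2.

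Other probe sets of Slc25a4 repeated the size of its difference. Probe set 1434897_a_at read 676 and 593, 524 and 491, and 2643 and 3181 in control, DSS and tumor, a tumor minus control change of 2.16. Probe set 1455069_x_at read 483 and 469, 430.0 and 384, and 2170.3 and 2133, a change of 2.14. All 3 probe sets above the filter were called in the fit of every probe set, and in all 3 the DSS arrays lay below both control arrays (-0.31 to -0.20). The fourth, 1424563_at, never exceeded 10.9 and carried no usable signal.

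Slc25a5 encodes ANT2, the adenine nucleotide carrier of dividing cells. Its brightest probe set read 14108 and 14597 in control, 16678 and 14499 in DSS and 13221 and 10969 in tumor. Both tumor arrays lay below the control and DSS arrays. The change was -0.25 ± 0.15 against control (limma adjusted p = 0.265) and -0.37 ± 0.15 against DSS (limma adjusted p = 0.111), so the gene was not called. Slc25a5 had 8 probe sets above the filter, 6 of them of the _x_at kind, which can bind related transcripts, and RefSeq also lists a pseudogene, Slc25a5-ps. In each of the 8 the tumor arrays lay below both control arrays, with changes from -0.79 to -0.16. When every probe set was tested, 3 were called: 1438545_at (-0.79, limma adjusted p = 0.0222), 1438360_x_at (-0.69, limma adjusted p = 0.0353) and 1438922_x_at (-0.69, limma adjusted p = 0.0413). Probe set 1438545_at, the only one without the _x or _a suffix, read 3151 and 3080.4 in control and 2035 and 1591 in tumor. The probe sets of this gene thus disagree on whether its decrease passes the threshold, not on its direction. After DSS they ran from -0.37 to 0.14 and disagreed in direction.

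**Figure D2:**
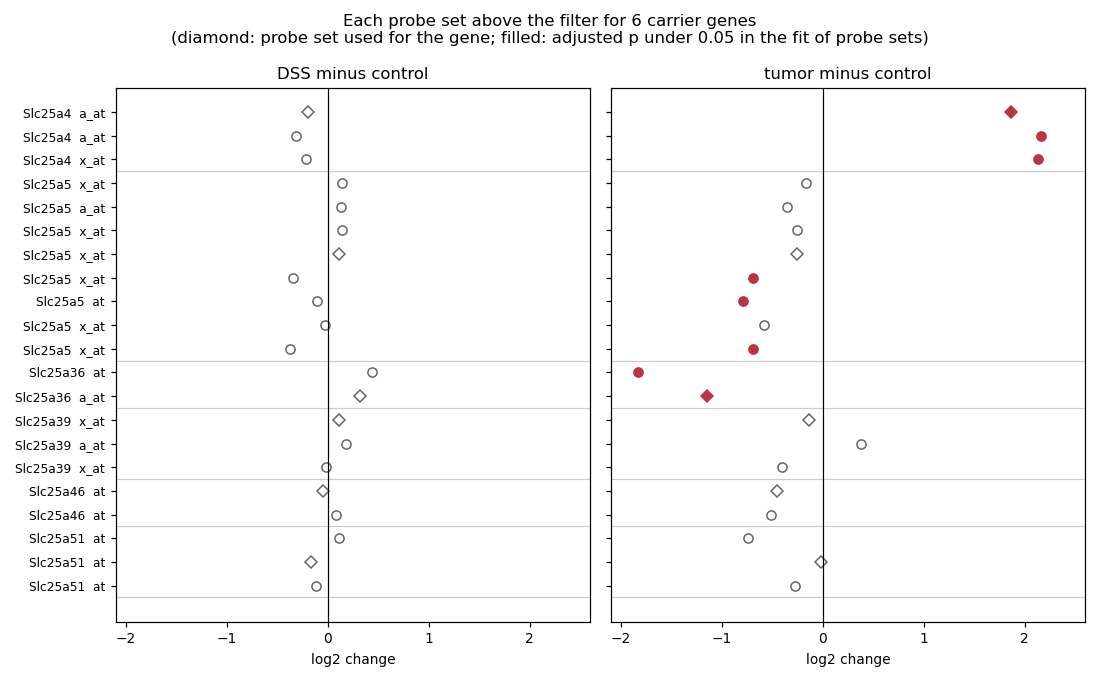
Each probe set above the filter is plotted for Slc25a4, Slc25a5, Slc25a36, Slc25a39, Slc25a46 and Slc25a51 by its log2 change (horizontal axis) in DSS minus control and tumor minus control; the diamond is the probe set used for the gene and filled symbols have an adjusted p under 0.05 in the fit of probe sets. All 3 Slc25a4 probe sets lie near 2 in tumor, the 8 of Slc25a5 lie between -0.79 and -0.16 with 3 filled, and the 3 of Slc25a39 lie on both sides of 0.

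Slc25a3, the phosphate carrier that feeds ATP synthase and also brings copper into mitochondria, read 10408 and 9726 in control, 11474 and 11850.1 in DSS and 7672 and 7621 in tumor. The groups did not overlap, with DSS highest and tumor lowest. It fell in tumor against DSS (log2 change -0.61 ± 0.13, limma adjusted p = 0.0123) but was not called against control (-0.40 ± 0.13, limma adjusted p = 0.0661) or after DSS (0.21 ± 0.13, 95% interval -0.09 to 0.52). The call against DSS was lost with quantile normalization (-0.35, adjusted p = 0.0737) and without DSS 1 (-0.63, 0.0681), DSS 2 (-0.58, 0.0778) or tumor 2 (-0.60, 0.0534).

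Slc25a24, a calcium-regulated carrier of ATP-magnesium and phosphate, read 456 and 392 in control, 474 and 411 in DSS and 316 and 200.2 in tumor. Both tumor arrays were lowest, and they differed from each other more than the other pairs did. It fell against DSS (-0.77 ± 0.24, limma adjusted p = 0.0458), a call kept in only 7 of 17 alternatives and lost without any one of control 1, control 2, DSS 1, DSS 2 or tumor 2 (-0.46 without tumor 2). Against control it was not called (-0.71 ± 0.24, limma adjusted p = 0.0661), and it became so with quantile normalization (-0.89), median centring (-0.96), the replicate block (-0.71) or without tumor 1 (-1.02). Without tumor 2 the change was -0.40. In this role group 1 of 4 tested genes rose in tumor against control and 0 fell, with a median of -0.32. Of all genes, 12.8% were called higher and 9.74% lower. The calcium-regulated relatives Slc25a23 and Slc25a25 stayed below the filter.

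**Figure D3:**
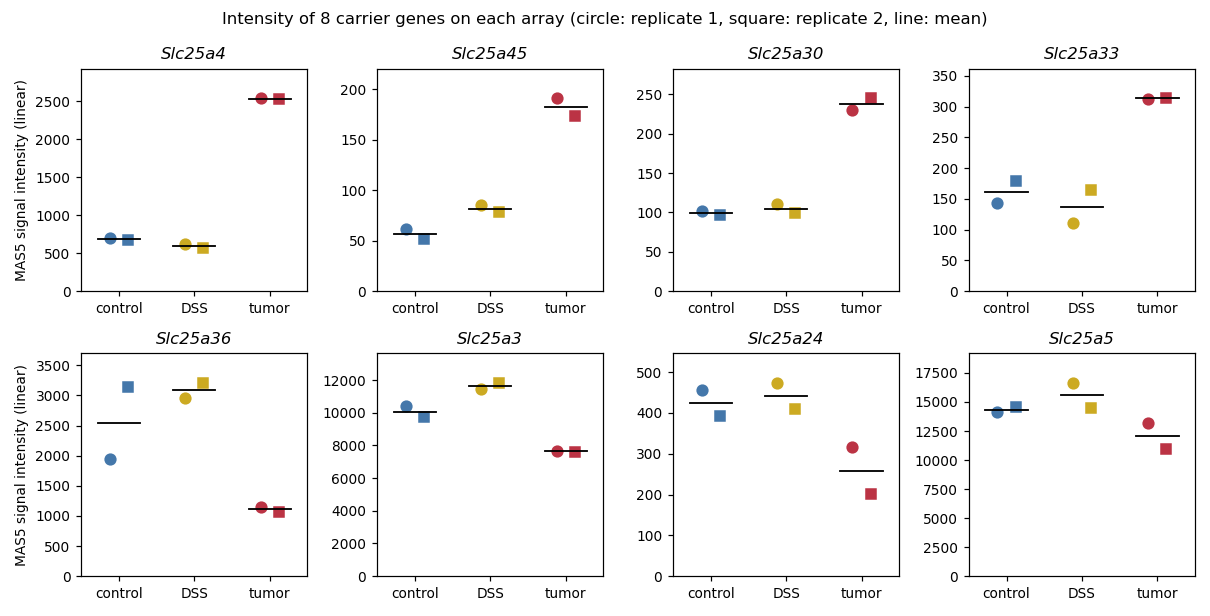
The MAS5 signal intensity on a linear scale (vertical axis, from 0, a separate scale per gene) is plotted on each array for 8 carriers in control, DSS and tumor; circles are replicate 1, squares replicate 2 and lines group means. Slc25a4, Slc25a45, Slc25a30 and Slc25a33 have both tumor arrays above all 4 others, Slc25a36, Slc25a3, Slc25a24 and Slc25a5 have both below, and control 1 is lower than control 2 for Slc25a36.

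Cofactor and nucleotide carriers held 1 rise and 1 fall among 5 tested genes (median tumor minus control -0.06), beside 12.8% and 9.74% of all genes. Slc25a36 encodes a pyrimidine nucleotide carrier linked to mitochondrial DNA and RNA synthesis. Its brighter probe set read 1949 and 3133 in control, 2950.1 and 3214 in DSS and 1154 and 1070.3 in tumor. Both tumor arrays were below all others, and the control arrays differed from each other more than either other pair. It fell to 0.454 of control (log2 change -1.14 ± 0.23, limma adjusted p = 0.0095) and to 0.365 of DSS (-1.46 ± 0.23, limma adjusted p = 0.00285). The second probe set, 1419656_at, read 469 and 911, 838 and 955, and 203 and 144, a tumor minus control change of -1.83. The call against control held in all 18 alternatives, from -1.48 to -0.80. After DSS its change of 0.31 ± 0.23 rested on the control pair, being -0.03 without control 1 and 0.65 without control 2.

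Slc25a33, the insulin-responsive pyrimidine nucleotide carrier PNC1, went the other way. It read 144 and 179 in control, 111 and 164 in DSS and 313 and 314.5 in tumor, with both tumor arrays above the rest. The tumor level was 1.86-fold that of control (log2 change 0.90 ± 0.24, limma adjusted p = 0.0314) and 2.17-fold that of DSS (1.11 ± 0.24, limma adjusted p = 0.012). The call against control was past the threshold in 9 of 17 alternatives. It was lost with quantile normalization (0.71), median centring (0.65), no filter (0.90) and the poly-A block (0.70), and without control 1 (0.75), control 2 (1.04), tumor 1 (0.90) or tumor 2 (0.89). Against DSS the call was lost without DSS 1 (0.87) or tumor 2 (1.11).

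The other 3 tested carriers of this group were not called. Slc25a51 was close to 0 in tumor against control (-0.01 ± 0.16) at 1525 and 1619 on the tumor arrays, while its dimmer probe sets gave -0.27 and -0.74. The peroxisomal carrier Slc25a17 was at -0.06 ± 0.22 and Slc25a26, which imports the methyl donor S-adenosylmethionine, at -0.11 ± 0.27. By the probe set used for each gene, the changes of these 3 genes in tumor against control thus lay inside their errors. The dimmer Slc25a51 probe sets were lower than that.

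Uncoupling protein-like carriers are relatives of the brown fat proton carrier Ucp1. Slc25a30, also known as kidney mitochondrial carrier protein KMCP1, read 102 and 97.0 in control, 111 and 98.7 in DSS and 231 and 246 in tumor. Both tumor arrays exceeded all others, while control and DSS overlapped. The tumor level, with the constant added, was 2.18-fold that of control (log2 change 1.12 ± 0.22, limma adjusted p = 0.00985) and 2.09-fold that of DSS (1.06 ± 0.22, limma adjusted p = 0.0107). The call against control was lost without control 2 (1.09, adjusted p = 0.054) or tumor 2 (1.08, 0.0619), and against DSS without DSS 1 (1.13), DSS 2 (0.99) or tumor 2 (1.02). The dimmer probe set 1450018_s_at, below the filter, also read higher in tumor (71.1 and 54.2 in control, 136 and 127 in tumor). Slc25a14, which encodes the brain-enriched relative UCP5, was at 0.18 ± 0.26 and not called.

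Slc25a45 rose from 61.2 and 52.2 in control to 192 and 173 in tumor, with DSS between at 85.7 and 78.2. The groups formed 3 levels without overlap. The tumor level, with the constant added, was 2.69-fold that of control (log2 change 1.43 ± 0.26, limma adjusted p = 0.0065) and 2.01-fold that of DSS (1.01 ± 0.26, limma adjusted p = 0.0243). The ratio of the intensities themselves is larger. Only the tumor arrays brought the gene past the filter, so it is no support for a change of the family, and without either tumor array it was not tested. Because it is dim, its change against control was 0.82 with a pseudocount at the median of all values, as Slc25a30's was 0.74. The call against DSS was lost with quantile normalization (0.79), median centring (0.77), and without DSS 1 (1.06) or DSS 2 (0.95). The other tested carriers with no assigned substrate were Slc25a35 (-0.20 ± 0.24) and the liver-typed Slc25a47 (0.07 ± 0.28), and neither was called.

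In the dicarboxylate and shuttle group 0 of 3 tested genes were called in tumor against control (median -0.31), beside 22.5% of all genes. So few genes cannot show a share different from that background. Slc25a10, the dicarboxylate carrier, read 778 and 592 in control, 632 and 622 in DSS and 747 and 751 in tumor, a tumor minus control change of 0.14 ± 0.18. Slc25a11, the oxoglutarate-malate carrier, read 893 and 907, 1038 and 888, and 726.5 and 716, a change of -0.31 ± 0.16 (limma adjusted p = 0.206). For Slc25a11 the tumor arrays were below all others, and for Slc25a10 they lay within the control range. Slc25a13 read 153 and 130.0 in tumor, below both other groups, a change of -0.43 ± 0.21 against control (limma adjusted p = 0.179).

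Among amino acid carriers 0 of 5 tested genes were called in tumor against control (median 0.12), beside 22.5% of all genes, again too few to differ from it. The ornithine carrier Slc25a15 read 847 and 683 in control, 691 and 709 in DSS and 685 and 662 in tumor, a tumor minus control change of -0.17 ± 0.17. The glutamate carrier Slc25a22 read 106 and 85.4, 82.3 and 109, and 99.8 and 212. Its change of 0.54 ± 0.35 (limma adjusted p = 0.308) came from the tumor 2 array, since tumor 1 lay within the control range. The glycine carrier Slc25a38 was at 0.19 ± 0.21, the basic amino acid carrier Slc25a29 at 0.12 ± 0.25 and Slc25a44, a carrier of branched-chain amino acids, at -0.11 ± 0.24.

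Iron and glutathione carriers likewise had 0 of 3 called in tumor against control (median -0.04), beside 22.5% of all genes, and are too few to differ from it. Mitoferrin 1 (Slc25a37), which supplies iron for heme, read 204 and 203 in control, 170.1 and 205 in DSS and 165 and 235 in tumor, a tumor minus control change of -0.04 ± 0.23. Mitoferrin 2 (Slc25a28) read 334 and 416, 459 and 400.4, and 417 and 434.5, a change of 0.18 ± 0.19. Slc25a39, required for mitochondrial glutathione import, read 5576 and 4841, 5262 and 6013, and 4103 and 5420.3, a change of -0.14 ± 0.18. Its 3 probe sets gave -0.40, -0.14 and 0.38, opposite in sign though none was called, so no direction can be read for this gene. Slc25a46, an outer membrane protein of mitochondrial shape, read 1492 and 1705, 1622 and 1463, and 1284 and 1054. Both its tumor arrays were below the others, with a change of -0.45 ± 0.17 against control that was not called (limma adjusted p = 0.102), and its second probe set gave -0.51.

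The carriers' partners were read from lists of related genes. None of these lists had a gene called after DSS, beside the background of 0%. In tumor against control the background was 12.8% of all genes called higher and 9.74% lower. Against DSS it was 14.8% higher and 11.3% lower. The TCA cycle list, the oxidative pathway that Slc25 carriers feed, had 0 of 19 tested genes higher and 5 lower in tumor against control, and 0 of 19 were above 0 (median -0.39, beside 0.05 over all genes). Dld (-0.89 ± 0.19), Sdhb (-0.84 ± 0.21) and Suclg1 (-0.70 ± 0.19), subunits of dehydrogenase complexes and of succinyl-CoA ligase, had the smallest p. The median stayed at or below -0.37 with any 1 array left out. The calls did not, numbering 1 without control 1, 3 without DSS 1, 0 without control 2 and 0 without tumor 2, and also 1 with no filter, 2 with no intensity trend, 3 with only the compared groups in the fit and 1 with the poly-A block. Against DSS 9 of 19 fell, and 0 without DSS 1 or tumor 2, 3 without DSS 2 or with the poly-A block, 4 with no filter and 5 with no intensity trend. The list of other carriers and mitochondrial membrane transport had 2 of 10 lower, the pyruvate carrier subunit Mpc1 (-0.71 ± 0.22) and the outer membrane channel Vdac3 (-0.83 ± 0.17). Both calls were lost without control 2 or tumor 2. That of Mpc1 was also lost without DSS 1 or DSS 2 and with quantile normalization, no filter, every probe set tested, no intensity trend, only the compared groups in the fit, the replicate block or the poly-A block, and its change was -0.45 without tumor 2.

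Enzymes that work with the shuttle carriers were split, beside 12.8% of all genes called higher and 9.74% lower in tumor against control. The monocarboxylate carrier Slc16a1, which takes up butyrate in colonocytes, fell from 7493 and 8085 in control to 3720 and 3187 in tumor (-1.17 ± 0.15, limma adjusted p = 0.00124). Gpd2, of the glycerol phosphate shuttle (1.28 ± 0.25), and Fasn, which makes fatty acids from citrate-derived carbon (1.44 ± 0.40), rose. These were the calls among 9 tested, the rise of Gpd2 being lost without tumor 2. The Fasn call was lost without control 2 (1.08) or tumor 2 (0.79), and with no filter, no intensity trend or the poly-A block, and its change was 2.09 without tumor 1. In the list of mitochondrial folate, glycine and proline enzymes 2 of 5 rose and 0 fell (median 0.79), namely Shmt2 (1.42 ± 0.24) and Prodh (1.66 ± 0.30), with 3 rising without control 1 and 1 without tumor 2. Prodh exceeded the array median on its 2 tumor arrays alone and was tested only through them, so its rise lends the list no support. Among 9 genes of glutamine, ornithine and polyamine use, Otc (-2.90 ± 0.30) and Oat (-0.74 ± 0.18), ornithine enzymes served by Slc25a15, fell. Arg1, an arginase also known from myeloid cells, went from 13.1 and 9.31 in control to 1262 and 1999 in tumor, and was tested only because its tumor arrays exceeded the array median. Summed myeloid markers were higher on the same arrays, and their part in the Arg1 result was not tested. The Oat call was lost without control 1, control 2 or tumor 2.

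The remaining lists are read beside the 12.8% of all genes called higher and 9.74% called lower. Of 10 iron, heme and iron-sulfur genes only Alad, of heme synthesis, rose (0.87 ± 0.17), a call lost without control 2 and with median centring. Of 14 import and chaperone genes 0 were called against control (median -0.02). Of 10 biogenesis regulators 0 rose and 2 fell, the coactivators Ppargc1b (-1.20 ± 0.17) and Ppargc1a (-1.02 ± 0.23, lost without control 1 or tumor 2), with a list median of -0.28.

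**Figure D4:**
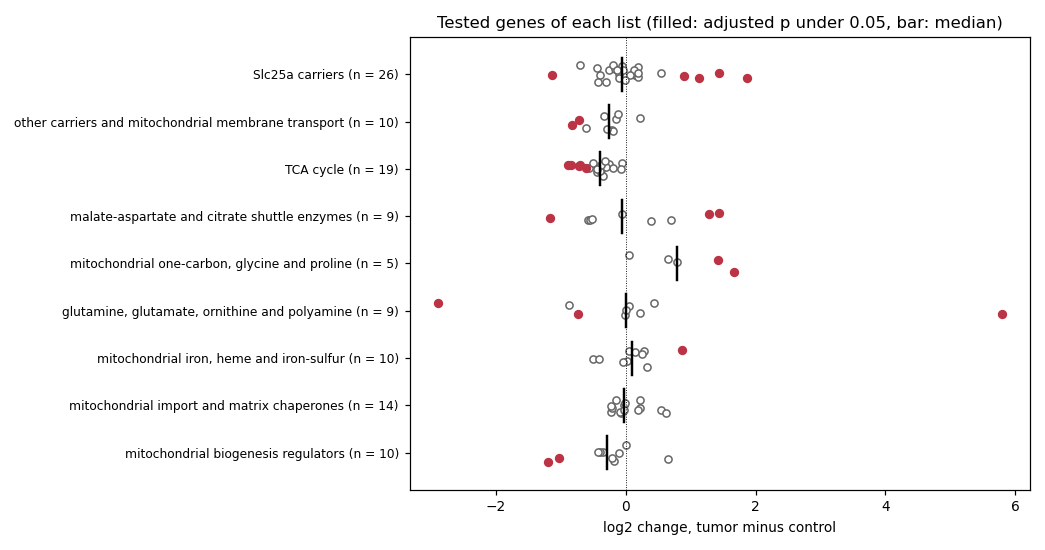
The log2 change of tumor minus control (horizontal axis) is plotted for each tested gene of the Slc25a carriers and of 8 lists of related mitochondrial genes (vertical axis, number of genes beside each name); filled points have an adjusted p under 0.05 and bars are medians. The carriers spread on both sides of a median of -0.05, and the 19 TCA cycle genes all lie below 0 with a median of -0.39.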

How the data were processed

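Total RNA of 6 crypt pools was hybridised to Affymetrix mouse arrays. The deposited table holds signal intensities on a linear scale that the authors made with MAS5, per the submitters' processing notes (its version is not given in the sources used here). A constant of 17.8, the 25th percentile of all values, was added before taking log2, so changes of dim genes are understated. Of 22690 probe sets, 64 were controls, 20380 had 1 gene symbol, 691 several and 1555 none. Symbols came from the platform's annotation, and all 32 carrier symbols were current. The probe set of highest mean stood for each gene. Tests used limma 3.58.1 (R 4.3.3) with an intensity trend, 1 fit of 3 groups and Benjamini-Hochberg adjustment over 7456 genes. The fit was also run on simulated data with independent noise on each array. Such data cannot show how it handles variation shared between arrays. Python 3.11.15 and matplotlib 3.10.9 drew the figures. The labels call the 2 arrays a group biological replicates. Arrays with the same replicate number were not taken as pairs, because these numbers are not known to pair them. Their deviations nonetheless correlated at 0.448 (control and DSS), 0.441 (DSS and tumor) and 0.0760 (control and tumor). The main fit left such shared variation in its error, and the replicate block was an alternative setting. Normalization, pseudocount, filter, probe set rule, variance model, blocks and left-out arrays were varied. The carriers and lists were chosen with earlier results of these data known. Carriers with array values were those called in tumor comparisons, the 4 of smallest p in each direction after DSS, and fixed members by role. Slc25a46 was printed outside this rule. From lists, up to 3 genes of smallest p were named. The number of arrays limits the precision. Errors are SE of the log2 change unless stated.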

Additional observations from a re-analysis of the deposited data

How the results depend on the processing

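Over the 12 other settings and the 6 fits leaving out 1 array (the group left with a lone array is then assumed to vary like the others), 0 calls of a carrier changed sign. After DSS 0 carriers were called in each. In tumor against control the carriers called lower were 1, and 2 with quantile normalization, median centring or the replicate block, and 5 probe sets where every probe set was tested, 3 of Slc25a5 and 2 of Slc25a36. The carriers called higher numbered 4 in both tumor comparisons. They were 1 with the 75th percentile filter, which tests fewer genes, and 3 with quantile normalization or median centring, in both comparisons. Against control they were also 3 with no filter or the poly-A block. Testing every probe set gave 6 probe sets in both. Leaving out 1 array gave 1 to 4 higher and 1 to 2 lower against control, and 1 to 4 higher and 1 to 3 lower against DSS. Under the replicate block, 4 carriers were higher and 2 lower against control and 4 and 3 against DSS, with 1944 and 2208 genes called in all beside 1680 and 1950; these replicate numbers are not known to pair the arrays. Leaving out 1 array gave 702 to 1382 and 903 to 1923 genes. The carriers' median log2 change, -0.05 against control and -0.02 against DSS, was -0.16 and -0.14 with quantile normalization, -0.30 and -0.25 with median centring, -0.21 and -0.31 with the 75th percentile filter and -0.12 and -0.14 with every probe set. Against control it was 0.02 with the poly-A block. After DSS it was 0.06, and -0.04 with no filter. Leaving out 1 array gave medians of -0.12 to 0.03 against control, -0.076 to -0.0057 against DSS and -0.02 to 0.06 after DSS. Median centring moved the median of all genes from 0.05 to -0.20 against control and from 0.04 to -0.19 against DSS, and the share of calls that were higher from 56.8% to 34.7% and from 56.8% to 35.7%. With quantile normalization those shares were 49.2% and 49.3%. The cause of these shifts was not tested.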
